A study of Danio rerio with 4 samples.

Results

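The miR-130, miR-301 and miR-454 family was followed through 4 small RNA libraries of sorted zebrafish embryo cells. Its members were taken by name, as every row of the deposited tables that begins with miR-130, miR-301 or miR-454 followed by a letter or a hyphen. This rule found 11 of the 372 miRNAs in the tables. Written here without the prefix dre- of the tables, they are miR-130a, miR-130b, miR-130c-3p, miR-130c-5p, miR-301a, miR-301b-3p, miR-301b-5p, miR-301c-3p, miR-301c-5p, miR-454a and miR-454b. All embryos carried Tg(sox10:eGFP,mRFP), in which the sox10 promoter drives the fluorescent proteins that mark neural crest cells (NCC). Cells positive for GFP (NCC) and negative for GFP (non-NCC) were sorted at 16 hpf and at 28 hpf, with 1 library for every combination. The reporter follows the sox10 promoter, and the number of embryos pooled for a library is not given in the sources used here. With no replicate in any group, the spread between sorts was not measured, and none of the tests below compares more than single libraries.

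A miRNA gene is transcribed into a hairpin, and both sides of the hairpin, the 5p and the 3p arm, can give a mature miRNA. One arm is usually loaded into Argonaute, where it represses mRNAs that pair with its seed, the bases near its 5′ end, while the other arm is mostly degraded. The miR-130, miR-301 and miR-454 miRNAs are read as 1 family because their 3p arms share a seed. The 5p arms have other seeds and thus other predicted targets. In human cells, family members are known to repress SMAD4, a mediator of TGF-β signaling, and miR-130a is known for its role in endothelial cells. The tables name an arm for 6 of the 11 rows. miR-130a, miR-130b, miR-301a, miR-454a and miR-454b carry no arm in their names, and in the usual nomenclature these are 3p arms, which was not checked against a sequence here. Rows of this kind were grouped with the 3p rows, which gave 8 rows of the family's 3p side and 3 rows of the 5p side.

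The GRCz12tu gene table gives the family 9 precursor genes in 3 neighboring groups, with miR-130c present in 2 of them. The first group holds mir130c-2, mir301b, mir454b and mir130b. The second holds mir130c-1 and mir301c. The third holds mir454a, mir301a and mir130a, which lie inside the spans of mdh2 and of ska2, the host gene of miR-301a in human. No miRNA gene outside the family lies within 10000 bases of a family gene. The 2 precursor genes of miR-130c yield the same miRNA names, so its reads cannot be divided between the groups.

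Whole reads were recovered from the normalized counts by dividing by the value of 1 read. The libraries held 2340716 reads (NCC) and 140132389 reads (non-NCC) at 16 hpf, and 6502 (NCC) and 1099312 (non-NCC) at 28 hpf. A count of 0 was read as allowing up to 3 reads, and this limit in NCC was 23.2 normalized counts at 16 hpf and 34.2 at 28 hpf. The tables hold no mRNA, so sox10 and foxd3 could not be checked here. To assess the sorting, the study measured foxd3 and a non-NCC marker, tbx5a, in the sorted populations by RT-qPCR. Of 18 marker miRNAs of other cell types, all 18 are in the tables. At 16 hpf, the muscle markers (miR-1, miR-133a-3p and miR-206-3p) summed to 633 normalized counts in NCC against 467 in non-NCC. The erythroid markers (miR-451 and both arms of miR-144) had 347 and 725, the endothelial markers (both arms of miR-126a and miR-126b) 108 and 452, the epithelial markers (miR-200, miR-203 and miR-205 rows) 8500 and 9365, and the neuronal markers (miR-124-3p and miR-9-5p) 3343 and 7367, respectively. Most of the epithelial sums was miR-205-5p (8268 in NCC and 8281 in non-NCC). Likewise, most of the neuronal sums was miR-9-5p (3296 and 7126). One marker was at 0 in NCC in each of the muscle, erythroid and endothelial lists. Within the erythroid and the muscle list the markers differed in direction. The log2 ratio of NCC over non-NCC was 3.08 for miR-451 but -5.47 for miR-144-5p, and 2.50 for miR-133a-3p but -1.44 for miR-206-3p. In the epithelial list, miR-200c-3p had a log2 ratio of 0.90 from 2 NCC reads (between -2.18 and 2.81), too few to show a direction. The other epithelial rows lay between -2.55 and 0.00. At 28 hpf, the erythroid and endothelial markers were all at 0 in NCC, and their sums in non-NCC were 10.7 and 2.28. The epithelial sum was higher in NCC (787 against 145), while the neuronal sum (239 against 393) and the muscle sum (22.8 against 68.0) were lower. Most of the epithelial sum was miR-205-5p, with 775 normalized counts in NCC (68 reads) against 123 in non-NCC. miR-200a-3p had 1 NCC read, and the other 4 epithelial rows had none. In NCC, the neuronal sum came from miR-9-5p alone and the muscle sum from 2 reads of miR-133a-3p. The part of these cell types in the results below was not tested. Intervals given with values are 95% Clopper-Pearson intervals on the recovered reads and account for counting error alone, since the reads carry no molecular identifiers and are not separate molecules.

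At 16 hpf, the 3 rows of the 5p side had higher values in NCC, and 2 of them passed the exact binomial test described below. The 3p side, apart from miR-454b, had lower values in NCC in 7 rows, and 4 of these passed. Over the 340 miRNAs with reads at this stage, the test called 14.7% higher in NCC and 17.9% higher in non-NCC. Among the 7 rows, miR-301b-3p (no NCC read, 1.66 expected at an equal level) and miR-130a (2 NCC reads) held too few reads to show a direction. In sorted pools of cells, a miRNA present in fewer cells cannot be told apart from one at a lower level in each cell. All 11 rows had reads in non-NCC and 10 had reads in both libraries. Of the latter, 3 exceeded 2-fold on the NCC side, 2 exceeded it on the non-NCC side and 5 stayed under 2-fold either way. Of the 225 miRNAs of the table present in both libraries, 26.7% passed 2-fold on the NCC side and 25.3% on the other, so that the family as a whole was close to the background on both sides. The split followed the arms. The 3 rows over 2-fold in NCC were the 3 rows of the 5p side, with a median log2 ratio of 1.64, and the 2 rows over 2-fold in non-NCC belonged to the 3p side, whose 7 rows with reads in both libraries had a median of -0.82. Over all rows of the table with reads in both libraries, those named 5p had a median log2 ratio of 0.20 (86 rows), those named 3p one of -0.26 (71 rows) and those with no arm one of 0.12 (68 rows).

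**Figure D1:**
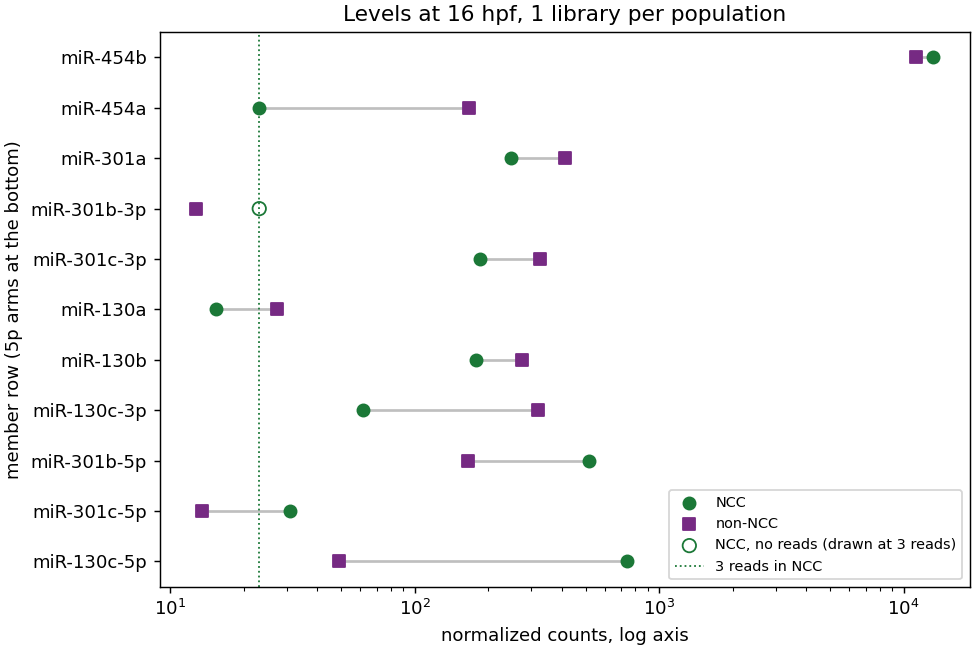
Normalized counts (x axis, log scale) of the 11 family rows (y axis) in the NCC library (circles) and the non-NCC library (squares) at 16 hpf, with 1 library each. The 5p rows at the bottom have the NCC point on the right, and the other rows except miR-454b and miR-301b-3p have it on the left. The open circle of miR-301b-3p stands for 0 reads and is drawn at the limit of 23.2 normalized counts.

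The 5p arm of miR-130c had the highest ratio of the family. dre-miR-130c-5p had 741 normalized counts in NCC (96 reads) and 49.1 in non-NCC (379 reads), and thus was 15.1-fold higher in NCC (interval between 11.9 and 18.9; adjusted p = 6.75e-71, exact binomial test). The exact binomial test was run over all 340 miRNAs with reads at this stage, of which it called 14.7% higher in NCC and 17.9% higher in non-NCC. miR-301b-5p had 517 normalized counts in NCC (67 reads) and 166 in non-NCC (1278 reads). It was 3.12-fold higher in NCC (between 2.41 and 3.996; adjusted p = 4.69e-14, exact binomial test), and its interval lay below that of miR-130c-5p. The third 5p row, miR-301c-5p, had 30.9 normalized counts in NCC from 4 reads and 13.5 in non-NCC from 104 reads. Its ratio of 2.29-fold had an interval from 0.613 to 6.05, too wide to tell the libraries apart (adjusted p = 0.259, exact binomial test). With edgeR's TMM factors its log2 ratio was 0.97, under 2-fold, so that 2 of the 3 rows stayed over 2-fold. Summed, the 3 rows gave 167 reads in NCC against 1761 in non-NCC (log2 ratio 2.50, from 2.26 to 2.73). Without miR-130c-5p, the sum was 3.06-fold higher in NCC, with a log2 ratio of 1.61 (from 1.25 to 1.96).

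On the 3p side, miR-454b stood apart from the rest in level and in ratio. dre-miR-454b had 13155 normalized counts in NCC (1704 reads) and 11199 in non-NCC (86457 reads), and ranked 16 in both libraries by reads. The difference was small, 1.17-fold higher in NCC (log2 ratio 0.23, between 0.16 and 0.30; adjusted p = 7.64e-10, exact binomial test). With edgeR's TMM factors, which lower every log2 ratio at 16 hpf by 0.226, that of miR-454b was 0.01. The other 7 rows of the 3p side had lower values in NCC than in non-NCC, one of them with no NCC read. miR-454a, which shares the name and the 3p seed of miR-454b but lies beside miR-301a and miR-130a, had 23.2 normalized counts in NCC (3 reads) and 167 in non-NCC (1286 reads). An equal level would have given 21.6 reads in NCC. It was 7.19-fold lower in NCC, with a log2 ratio of -2.85 (between -5.13 and -1.30; adjusted p = 7.59e-06, exact binomial test).

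miR-130c-3p, the opposite arm of miR-130c-5p, had 61.8 normalized counts in NCC (8 reads) and 319 in non-NCC (2464 reads). It was 5.17-fold lower in NCC, with a log2 ratio of -2.37 (between -3.58 and -1.39; adjusted p = 3.83e-09, exact binomial test). The reads of miR-130c-3p may have been counted at both of its precursor genes, as described below. In that case this interval is too narrow and this p-value too small. The ratios of miR-301a and miR-301c-3p were smaller. miR-301a, with 32 and 3197 reads, stood at 247 normalized counts in NCC against 414 in non-NCC and was 1.68-fold lower in NCC (log2 ratio -0.75, between -1.30 and -0.24; adjusted p = 0.00793, exact binomial test). miR-301c-3p had 185 and 327 normalized counts (24 and 2522 reads) and was 1.76-fold lower in NCC (log2 ratio -0.82, between -1.46 and -0.24; adjusted p = 0.0125, exact binomial test). These 2 rows, miR-130c-3p and miR-454a were the 4 rows of the family that passed the exact binomial test in the direction of non-NCC.

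The remaining rows of the 3p side did not pass the test. miR-130b had 178 normalized counts in NCC (23 reads) and 275 in non-NCC (2122 reads), for a log2 ratio of -0.63 (between -1.29 and -0.04; adjusted p = 0.0964, exact binomial test). miR-130a rested on 2 NCC reads (15.4 normalized counts) against 212 in non-NCC (27.5 normalized counts), with a log2 ratio of -0.83 between -3.89 and 1.04. dre-miR-301b-3p had 0 reads in NCC against 99 in non-NCC (12.8 normalized counts), which is under the NCC limit, so that no fold was given. An equal level would have given 1.66 reads in NCC. In the whole table, 33.6% of the miRNAs with non-NCC reads had none in NCC at this stage.

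**Figure D2:**
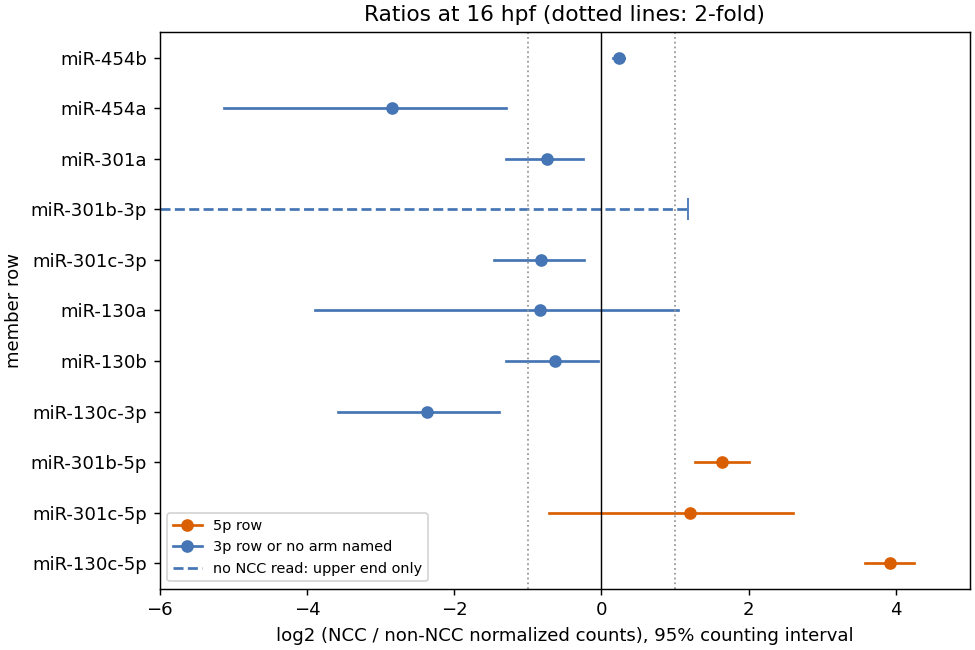
Log2 ratio of NCC over non-NCC normalized counts at 16 hpf (x axis) of the 11 family rows (y axis), with bars for 95% counting intervals and dotted lines at 2-fold. The 3 rows of the 5p side lie to the right of the 2-fold line (miR-301c-5p not so with TMM factors) and the intervals of miR-130c-5p and miR-301b-5p stay there, whereas 4 rows of the 3p side have intervals that lie wholly below 0 and passed the test. The interval of miR-130b also ends below 0, at -0.04, without a pass. The dashed bar of miR-301b-3p, with no NCC read, has only an upper end, 1.18.

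Ordered by their ratio at 16 hpf, the rows ran from miR-130c-5p over miR-301b-5p, miR-301c-5p, miR-454b, miR-130b, miR-301a, miR-301c-3p, miR-130a and miR-130c-3p to miR-454a. Of the 9 neighboring pairs in this order, the intervals did not overlap for miR-130c-5p and miR-301b-5p, nor for miR-454b and miR-130b, and they overlapped for the other 7. The family sum of the 3p side depended on miR-454b, which held 86.8% of the family's reads in NCC and 86.4% in non-NCC. The 8 rows summed to 13865 normalized counts in NCC against 12741 in non-NCC, a log2 ratio of 0.12 (from 0.05 to 0.19), which TMM factors took to -0.10. Without miR-454b the direction turned, with 710 normalized counts in NCC against 1542 in non-NCC. The sum of these 7 rows was 2.17-fold lower in NCC, with a log2 ratio of -1.12 (from -1.43 to -0.82).

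Rows of genes that lie side by side did not all share a ratio. In the first group, miR-301b-5p was 3.12-fold higher in NCC and miR-454b 1.17-fold higher, while miR-130b was 1.55-fold lower, and the intervals of these 3 rows did not overlap. For miR-301b-5p, a difference between arms cannot be told apart from one between genes, since miR-454b and miR-130b are of the 3p side. The 3p row of its gene, miR-301b-3p, had no NCC read. Its log2 interval, with an upper end of 1.18, overlapped those of miR-454b and miR-130b. In the third group, miR-454a was 7.19-fold lower in NCC and miR-301a 1.68-fold lower, and their intervals met end to end at -1.30. miR-130a, the third row there, was 1.78-fold lower from 2 NCC reads, close to miR-301a, with an interval that overlapped both.

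Both arms are listed for miR-130c, miR-301b and miR-301c, and their shares can be compared without a choice of scaling, since both arms come from the same library. The arm with more reads of miR-130c differed between the NCC and the non-NCC library at 16 hpf. Since miR-130c has 2 precursor genes, a difference between arms cannot be told apart from one between its genes. In the NCC library at 16 hpf, the 5p arm took 96 of 104 reads, 92.3% (from 85.4% to 96.6%). In the non-NCC library, it took 379 of 2843 reads, 13.3% (from 12.1% to 14.6%). The odds of a 5p read were thus 77.8 times as high in NCC (interval from 37.5 to 187; Fisher's exact test, two-sided, adjusted p = 3.25e-68 over the 93 arm pairs of the table with reads in both libraries). Of these 93 pairs, 15.1% were called, and 9.68% were called with a higher 5p share in NCC. In 11 of the 14 called pairs, miR-130c among them, the arm with fewer reads in non-NCC took a larger share in NCC. miR-130c ranked 3 of the 93 by its p-value, and it was among 5 called pairs whose arm with more reads differed between the libraries. The other 4, named after their values were seen, were miR-16c, miR-193b, miR-200a and miR-221.

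miR-301b was read mostly from its 5p arm in both populations. The 5p arm took 67 of 67 reads in NCC, 100% (from 94.6% to 100%), and 1278 of 1377 reads in non-NCC, 92.8% (from 91.3% to 94.1%). The difference did not pass the test (Fisher's exact test, unadjusted p = 0.0122, adjusted p = 0.0755). miR-301c was read mostly from its 3p arm. Its 5p arm took 4 of 28 reads in NCC, 14.3% (from 4.03% to 32.7%), and 104 of 2626 reads in non-NCC, 3.96% (from 3.25% to 4.78%). This difference did not pass either (Fisher's exact test, unadjusted p = 0.025, adjusted p = 0.116). In all 3 hairpins the 5p share was higher in NCC, as it was for 51 of the 93 pairs tested. The arms that dominate in non-NCC thus differ within the family, with the 3p arm on top for miR-130c and miR-301c and the 5p arm for miR-301b, which lies beside mir130c-2.

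**Figure D3:**
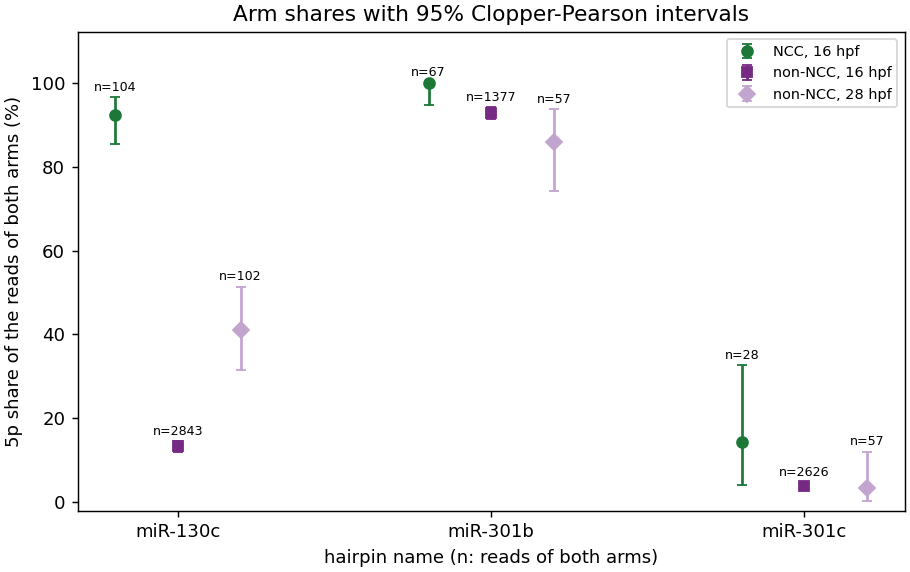
Share of the 5p arm among the reads of both arms (y axis, %) for miR-130c, miR-301b and miR-301c in the 3 libraries with reads, with 95% Clopper-Pearson intervals and the number of reads above each point. At 16 hpf, miR-130c stands at 92.3% for NCC against 13.3% for non-NCC, and at 41.2% for non-NCC of 28 hpf. The reads of miR-130c-3p are drawn as recovered, without division by its precursor genes. The shares of miR-301b and miR-301c differ less between the libraries.

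**Figure D4:**
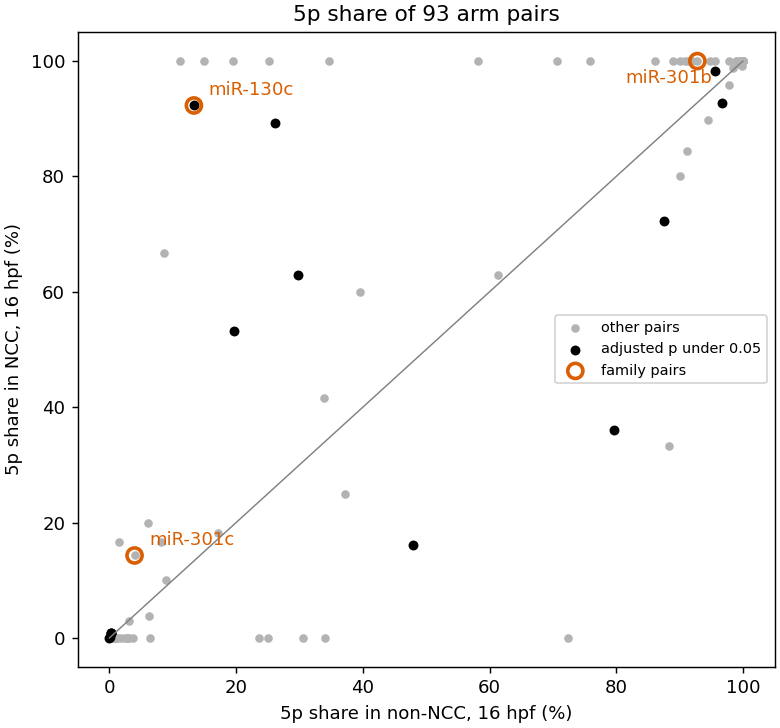
5p share in NCC (y axis, %) against 5p share in non-NCC (x axis, %) at 16 hpf for the 93 arm pairs of the table, with the line of equal shares. Black points are the 14 pairs called by Fisher's exact test, and rings mark the family pairs, of which miR-130c lies far above the line.

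The reads of miR-130c-3p were even in all libraries (8, 2464, 0 and 60), and miR-130c has 2 precursor genes, so that each of its reads may have been counted at both. The counts of miR-130c-5p (96, 379, 0 and 42) are not all even. With the reads of miR-130c-3p divided by 2, the 5p share was 96.0% in NCC and 23.5% in non-NCC, and the odds ratio was 77.8 (from 29.1 to 293). How reads that match several precursors were assigned is not given in the sources used here, and the assignment of reads between similar members cannot be told apart from their levels.

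At 28 hpf, none of the 11 rows had a read in the NCC library, whereas all 11 had reads in the non-NCC library. In the whole table, 79.3% of the miRNAs with reads in non-NCC had none in NCC at this stage, and only miR-454b among the family rows would have been expected to give 3 NCC reads or more at an equal level. Since no row had reads in both libraries, none could pass the 2-fold criterion, which 24.5% of 49 miRNAs passed in NCC and 34.7% in non-NCC. dre-miR-454b had 115 normalized counts in non-NCC (1311 reads). Set against the limit of 3 reads, and with the deposited scaling, it was at least 3.36-fold lower in NCC. The upper end of the two-sided interval of its log2 ratio lay nearer to 0 than this limit, at -1.45 (adjusted p = 0.00148 in the exact binomial test over 239 miRNAs, of which 5.02% were called higher in non-NCC and 2.93% in NCC). For the other 10 rows, the NCC reads expected at an equal level ranged from 0.00769 (miR-130a) to 0.461 (miR-130c-3p), so that neither a lower nor a several-fold higher level in NCC was detectable at this depth. The family as a whole had 1624 reads (142 normalized counts) in non-NCC against 12.5 expected and 0 found in NCC. With the deposited scaling, it was at least 4.16-fold lower in NCC against the limit of 3 reads. The upper end of the interval of its log2 ratio was -1.76. Library totals, totals without miR-430 and TMM factors raise every log2 ratio at 28 hpf by 0.379, 0.672 and 0.412, which makes these folds smaller. Without miR-454b, the 7 other rows of the 3p side had 220 non-NCC reads and 1.69 expected NCC reads, and the upper end of the log2 interval was 1.14.

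The non-NCC library at 28 hpf held 60 reads of miR-130c-3p, 59 of miR-301a, 55 of miR-301c-3p, 49 of miR-301b-5p, 42 of miR-130c-5p, 23 of miR-130b, 14 of miR-454a, 8 of miR-301b-3p, 2 of miR-301c-5p and 1 of miR-130a. miR-454b took 80.7% of the family's reads there. The 5p arm of miR-130c took 42 of 102 reads, 41.2% (from 31.5% to 51.4%), which is above its share in non-NCC at 16 hpf and below that in NCC at 16 hpf, with no overlap of the intervals. If the 60 reads of miR-130c-3p were counted at both precursor genes, its 5p share here would be higher. Which arm of miR-130c had more reads in this library thus depends on that count. The 5p shares of miR-301b, 86.0% (from 74.2% to 93.7%), and miR-301c, 3.51% (from 0.428% to 12.1%), had intervals that overlapped those of the non-NCC library at 16 hpf.

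The ratio of NCC to non-NCC was compared between the stages with an exact conditional test on the 4 read counts, adjusted over 189 miRNAs, of which 8.99% were called lower and 5.82% higher at 28 hpf. Among the family rows, miR-454b passed. At its ratio of 16 hpf, 11.8 NCC reads would have been expected at 28 hpf and none was found (exact conditional test, adjusted p = 0.000198). For miR-130c-5p, 4.88 NCC reads would have been expected from its ratio at 16 hpf, and the test did not pass (exact conditional test, unadjusted p = 0.0167, adjusted p = 0.102). For the other 8 rows that could be tested, at most 1.18 NCC reads would have been expected, and a change was not detectable.

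As a share of all recovered reads, which can be set side by side although the stages were normalized apart, the family took 0.0839% of the NCC library (from 0.0802% to 0.0877%) and 0.0714% of the non-NCC library (from 0.0710% to 0.0719%) at 16 hpf. At 28 hpf, it took 0.148% of the non-NCC library (from 0.141% to 0.155%), and the 0 of 6502 NCC reads allow a share of up to 0.0461% at the limit of 3 reads, or 0.0567% at the upper end of the interval. The rows spanned a wide range of levels. In rpm (reads in 1000000 recovered reads), miR-454b stood at 728 (NCC) and 617 (non-NCC) for 16 hpf and at 1193 in the non-NCC library of 28 hpf. Second to it were miR-130c-5p in NCC at 16 hpf (41.0), miR-301a in non-NCC at 16 hpf (22.8) and miR-130c-3p in non-NCC at 28 hpf (54.6). At 28 hpf this place was not firm, since miR-301a stood at 53.7 (from 40.9 to 69.2) and miR-130c-3p had an interval from 41.7 to 70.3. Reads of miR-130c-3p may also have been counted at both precursor genes. miR-130a was under 2 rpm in each of these 3 libraries (0.854, 1.51 and 0.910).

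**Figure D5:**
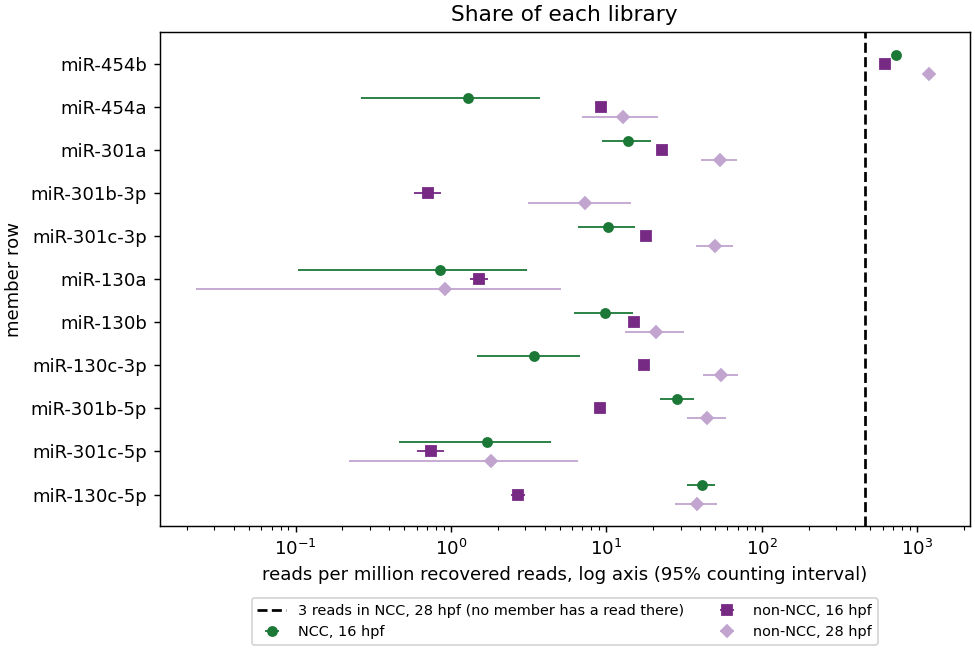
Reads in 1000000 recovered reads (rpm, x axis, log scale) of the 11 family rows (y axis) in the 3 libraries where they have reads, with bars for 95% counting intervals. The dashed line marks the 461 rpm that 3 reads amount to in the NCC library at 28 hpf, and of the 11 rows only miR-454b lies to the right of it. miR-301b-3p has no point for NCC at 16 hpf.

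Within the non-NCC libraries, the family rows other than miR-130a took a larger share of all reads at 28 hpf than at 16 hpf. For miR-301c-5p (log2 from -1.77 to 3.18), miR-454a (from -0.40 to 1.22) and miR-130b (from -0.19 to 1.06), the interval included 0. That of miR-130a, from 1 read at 28 hpf, did so too (from -6.04 to 1.76). The direction of these rows was thus not shown. The median of the family was 2.45-fold, beside 3.90-fold over the 236 miRNAs with reads in both of these libraries. Without the miR-430 reads in the totals, the direction turned for most rows. The median of the family was then 0.607-fold, beside 0.967-fold over all miRNAs, and miR-130c-5p, miR-301b-3p and miR-301b-5p were the 3 rows that still took a larger share at 28 hpf. On this scale miR-130c-5p was 3.50-fold higher at 28 hpf (log2 1.81, from 1.31 to 2.27), miR-301b-3p 2.55-fold (log2 1.35, from 0.10 to 2.39), and the interval of miR-301b-5p, from -0.17 to 0.69, included 0. miR-454b had 0.479 times its share of 16 hpf (log2 -1.06, from -1.14 to -0.98).

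miR-19, whose 3p seed is close to that of the family, was set beside it. At 16 hpf, its 4 rows named 3p summed to 1297 normalized counts in NCC against 4604 in non-NCC, a log2 ratio of -1.83 (from -2.06 to -1.61). miR-19a-3p was 5.37-fold lower in NCC, miR-19b-3p 3.66-fold, miR-19d-3p 5.39-fold and miR-19c-3p 1.41-fold (log2 ratio -0.49, between -0.995 and -0.034; adjusted p = 0.0942, exact binomial test). Of its 5p rows, miR-19d-5p had 2 NCC reads and the other 3 had none. The 5p arm of miR-19d took 2 of 12 reads in NCC, 16.7%, and 48 of 3261 in non-NCC, 1.47%, and the difference did not pass (odds ratio 13.3; Fisher's exact test, unadjusted p = 0.0137, adjusted p = 0.0796). In miR-19a, miR-19b and miR-19c the 5p share was 0% in NCC and 0.896%, 0.111% and 6.43% in non-NCC, and these pairs did not pass either. At 28 hpf no miR-19 row had an NCC read. The 3 miRNAs outside the family whose profile over the 4 libraries was closest to that of miR-454b, among 97 with at least 10 reads in both libraries at 16 hpf, were miR-430b-5p, miR-21 and miR-199-5p. Their Euclidean distances were 2.01, 2.13 and 2.21 on centered log2 rpm, with 0.5 reads added to each count. This is a description over 4 libraries. miR-430b-5p and miR-199-5p, like miR-454b, had no NCC read at 28 hpf, while miR-21 had 40. For the miRNAs with no read there, that part of the profile was set by the added 0.5 reads.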

How the data were processed

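Small RNA from sorted NCC and non-NCC at 16 and 28 hpf was sequenced as 1 library each. The authors aligned reads with Bowtie, counted them with HTSeq and normalized the counts with DESeq2, and the submitters' processing notes name GRCz11. They deposited normalized counts, a signal that is the read count divided by the size factor of the library, in 1 table per stage. Versions and the treatment of multiple matches are not given in the sources used here. The study's methods name TRIzol, and the labels a column kit.

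Dividing each library's values by its lowest value above 0 gave whole numbers for 100% of them, to within 4.02e-07, and these were taken as reads. Differences were read by a criterion of 2-fold with reads in both libraries. The study's text gives a fold enrichment over 2, whereas its figure captions give a log2 ratio over 2. A threshold of 4-fold was therefore also run. Recovered reads were tested with two-sided exact binomial tests (libraries expected in the ratio of their size factors), Fisher's exact tests and exact conditional tests, each with Benjamini-Hochberg adjustment over all miRNAs or pairs tested. The exact binomial test called 111 miRNAs at 16 hpf and 19 at 28 hpf. All 11 rows are named, and the rows set beside them follow a fixed rule: miR-19, neighboring miRNA genes and the 3 closest profiles. Members and lists were chosen with earlier results of these data known. The 3p side was defined by names, and the gene table of GRCz12tu, which gives no strand, named precursor genes for all 11 rows. In simulated reads at the depths of 16 hpf, 94 of 170 miRNAs changed 4-fold were called in the right direction and 0 of 170 unchanged ones. At 28 hpf, 18 of 119 and 0 of 120 were called. The simulated reads held counting error alone, without spread between sorts or errors of scaling. They thus do not give the rate of false calls between populations. Python 3.11.15, numpy 2.4.6, pandas 2.3.3, scipy 1.17.1, matplotlib 3.10.9, R 4.3.3 and edgeR 4.0.16 were used.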

Additional observations from a re-analysis of the deposited data

Results flagged for a closer look

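The ratio of NCC to non-NCC of miR-454b differed between the stages in the exact conditional test over 189 miRNAs (adjusted p = 0.000198), with 1704 NCC reads at 16 hpf and 0 of an expected 11.8 at 28 hpf. The adjusted p ranged from 0.000113 to 0.0116 over the 3 other scalings and a minimum of 10 NCC reads. The 28-hpf NCC library held 6502 reads in all, and the part of its depth in this difference was not tested.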

How the results depend on the processing

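The limits of these data are the single library of each group and the 6502 reads of the NCC library at 28 hpf. No paired analysis was possible because each group has 1 library and the labels carry no replicate numbers. The members over 2-fold in NCC at 16 hpf numbered 3. Both TMM factors and a minimum of 10 reads in both libraries left 2, without miR-301c-5p, and a threshold of 4-fold left 1, miR-130c-5p. Those over 2-fold in non-NCC numbered 2, and became 4 with TMM factors and 0 with at least 10 reads in both libraries. At 28 hpf, both counts were 0, because no row had reads in both libraries. With 0.5 reads added to each library 5 rows passed in NCC and 1 passed in non-NCC. The plotting pseudocount put 11 over 2-fold in non-NCC. Since no family row had an NCC read at 28 hpf, these calls were set by the amount added and are no result about the family. For these other settings at either stage, the share over all miRNAs is not given here. The log2 ratio of the summed 3p side at 16 hpf, 0.12, reversed to -0.10 with TMM factors and to -1.12 without miR-454b. Its upper end at 28 hpf, -1.67, became 1.14 without miR-454b, where fewer reads were left. Without the miR-430 reads in the totals, the family took 1.05% (NCC) and 0.865% (non-NCC) of the reads at 16 hpf, and 0.443% (non-NCC) at 28 hpf. In 49 of 50 recomputations, the log2 ratio of a member at 16 hpf stayed inside its interval, and the exception was miR-454b with TMM factors. The other scalings shift every log2 ratio at 16 hpf by the same amount, the largest being -0.226 (TMM). The intervals of the members other than miR-454b reach further than this to either side. For these scalings the outcome was thus set by the width of the intervals and does not show how firm the ratios are. The sum of the 5p side without miR-130c-5p was chosen after the data were seen. The call of miR-130c in the arm test and of miR-454b between stages held in every alternative run on them. The alternatives of the arm test could hardly have changed the call of miR-130c. Dividing its 3p reads in both libraries leaves the odds ratio nearly as it was. The minimum of 10 reads applied to each arm summed over both libraries, and miR-130c is well over it. In the NCC library alone, its 3p arm had 8 reads. At 28 hpf, the log2 shifts of the other scalings were 0.379 (totals), 0.672 (totals without miR-430) and 0.412 (TMM). The causes were not tested.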
